A study of Pimephales promelas with 12 samples.

Results

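The gut and the telencephalon of adult male fathead minnows (Pimephales promelas, a small cyprinid fish used in toxicity testing) were compared by RNA sequencing. The comparison was defined by the sample labels and chosen with earlier results of these data known. It set the 3 gut libraries (replicates 1 to 3) against the 3 telencephalon libraries (replicates 1 to 3). These are 6 of the 12 libraries of the series. The other libraries came from hypothalamus and liver, with 3 of each, and are used below only as background. The fish came from one laboratory culture, no exposure or genotype is given for any group, and the methods describe 3 individual males. Each group is therefore 3 fish of one sex, and both groups are whole pieces of tissue with all of their cell types. What was counted were reads per contig, an assembled sequence that stands for a transcript. Of the 46309 contigs with a count in the series, 45136 had a count in at least 1 of these 6 libraries.

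The fish gut digests food and takes up nutrients through a lining of epithelial cells, which lies on layers of smooth muscle and holds mucus-secreting, endocrine, immune and nerve cells. The telencephalon is the front part of the forebrain, made of neurons and glia, and takes part in smell, learning and social behavior. In vertebrates, brain tissue is known for the large variety of genes it transcribes, while digestive organs devote much of their RNA to a few products in high demand. The question put to the data was which transcripts set an organ of digestion apart from a region of the brain in healthy males. The contigs carry names of assemblies or isoforms, or sequence identifiers, none of which matched the gene table supplied for this species. No contig could thus be tied to a gene, a pathway or a cell type. The tissue labels could not be checked against marker genes. No sequence of a contig was at hand either, and none is printed.

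The gut counts were concentrated on fewer contigs than the telencephalon counts. Both tissues were read to a similar depth, with 19301093 to 20801155 counts in the gut libraries and 17729942 to 21463583 in the telencephalon libraries. The number of contigs that together held 50% of the counts was 428, 513 and 454 in gut replicates 1, 2 and 3 and 1617, 1496 and 1438 in telencephalon replicates 1, 2 and 3. Every gut library thus needed fewer contigs than every telencephalon library. To hold 90% of the counts took 7050 to 7140 contigs in gut and 10071 to 10682 in telencephalon. The 10 highest contigs took 13.8% ± 0.806 (SD, n = 3) of the gut counts and 8.28% ± 0.653 (SD, n = 3) of the telencephalon counts. At least 50 counts were found on 18183 to 18688 contigs in gut and on 21285 to 22988 in telencephalon. None of these 4 measures overlapped between the tissues. Each gave p = 0.1 in an exact two-sided permutation test (0.114 after Benjamini-Hochberg adjustment over 8 measures). That is the smallest p that 3 against 3 can give when libraries are shuffled freely. The shuffling ignored the pairing of libraries by fish that is described below, and a test within fish was not run.

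Most contigs were found in both tissues. Counts in gut and in telencephalon were seen for 40798 contigs, and 32230 had a count in all 6 libraries. A count in gut with none in telencephalon was seen for 1489 contigs, of which 252 had a count in all 3 gut libraries. The reverse was seen for 2849 contigs, of which 847 had a count in all 3 telencephalon libraries. A count of 0 here allows up to 0.177 to 0.190 CPM in a gut library and 0.114 to 0.142 CPM in a telencephalon library (CPM, the count divided by the TMM-scaled library size in units of 1000000 reads, with 3 counts as the limit). The lower limits in telencephalon rest on this scaling, with TMM factors of 0.806 to 0.830 in gut and 1.19 to 1.26 in telencephalon.

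A large part of the transcriptome differed between gut and telencephalon, and the contigs involved carried most of the counts of each tissue. Of the 42878 contigs tested, 41.5% differed. There were 8102 contigs higher in gut (18.9% of those tested) and 9701 higher in telencephalon (22.6%), by edgeR's quasi-likelihood test with a Benjamini-Hochberg adjusted p under 0.05. The contigs higher in gut held 70.9%, 69.4% and 70.0% of the counts in gut replicates 1, 2 and 3, and 16.9%, 14.6% and 15.6% of those in telencephalon replicates 1, 2 and 3. The contigs higher in telencephalon held 50.5%, 54.2% and 52.5% of the counts in the telencephalon libraries and 7.45%, 7.49% and 7.16% in the gut libraries. The telencephalon list was thus longer and held a smaller part of its tissue's counts. In bulk tissue, fewer cells of a type and less RNA per cell cannot be told apart. The balance between the directions depended on the scaling. With TMM, 45.5% of the differing contigs were higher in gut, with library size as the only scaling 27.6% (5345 contigs), and with upper quartile scaling 51.2% (9201 contigs). Over contigs whose mean reached 50 counts in gut or in telencephalon, the median log2 difference was -0.11 with TMM, -0.70 with library size and 0.0622 with upper quartile scaling, so its sign was set by the scaling, and the folds below are relative to TMM.

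**Figure D1:**
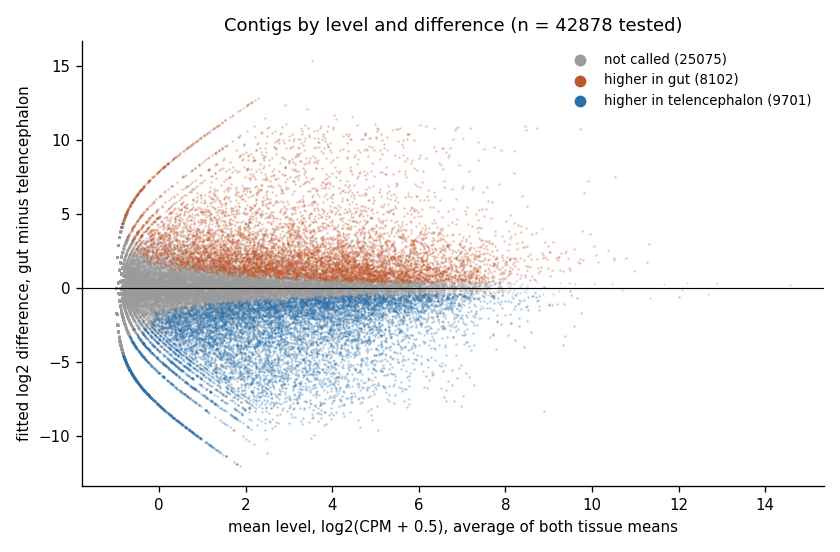
Fitted log2 difference (gut minus telencephalon) of each of the 42878 contigs tested against its level, the average of the tissue means in log2(CPM + 0.5). Each point is a contig, 8102 are colored as higher in gut and 9701 as higher in telencephalon, and the curved lines at the left are contigs with few or no counts in one tissue.

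**Figure D2:**
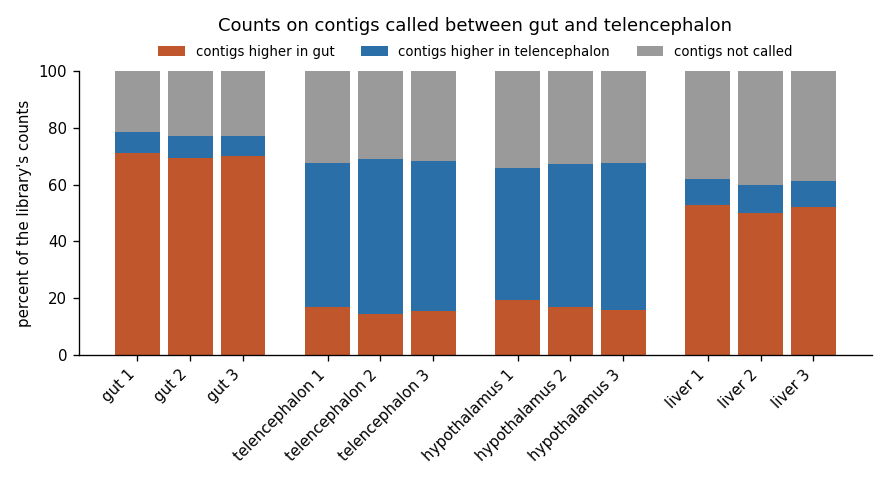
Percent of the counts of each library on contigs called higher in gut, higher in telencephalon or not called between these tissues. Each bar is a library, and the hypothalamus and liver libraries, which the test did not use, are shown for background.

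The differences were large in both directions. Over all called contigs they were larger on the telencephalon side under each of the 4 scalings, but on the gut side among called contigs that averaged 50 counts or more in both tissues (median 1.56 against 1.45 on the log2 scale) and among those of 10000 counts and over (6.36 against 3.51). The median size among all called contigs was 2.17 on the log2 scale for those higher in gut and 2.82 for those higher in telencephalon. At least 10-fold was fitted for 2384 contigs higher in gut and for 4089 higher in telencephalon, and at least 100-fold for 664 and 929. Some of these contigs had no count at all in the lower tissue, 211 of those higher in gut and 563 of those higher in telencephalon, and their fitted change depends on the method. With these set to the lower bound that 3 counts over the group allow, 2321 and 3851 contigs were at least 10-fold apart, 592 and 653 at least 100-fold, and the medians were 2.17 and 2.72 on the log2 scale. The 2384 contigs at least 10-fold higher in gut held 39.9% ± 1.32 (SD, n = 3) of the gut counts and 0.892% ± 0.0852 of the telencephalon counts. The 4089 contigs at least 10-fold higher in telencephalon held 24.9% ± 1.41 of the telencephalon counts and 0.465% ± 0.0540 of the gut counts. A test that asks for more than a 2-fold difference called 11366 contigs, 4857 of them higher in gut.

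The direction was the same in each fish for nearly all called contigs, which the call itself favors. Libraries with the same replicate number varied together, and each number was taken to stand for a fish. Of the contigs called higher in gut, 8045 of 8102 were higher in gut in each of the 3 fish, and 4900 were at least 2-fold higher in each. Of those called higher in telencephalon, 9683 of 9701 were higher there in each fish, and 6636 at least 2-fold. For comparison, 66.1% of all tested contigs and 42.4% of those not called kept 1 direction in the 3 fish. The gut and telencephalon libraries did not overlap for 7987 and 9658 of the called contigs. Over all tested contigs, every gut library lay above every telencephalon library for 24.3%, and the reverse held for 29.6%. Libraries that do not overlap are no call by themselves. Among the 25075 contigs not called, 2427 also had every gut library above every telencephalon library and 3055 the reverse.

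The most abundant contigs tended to be higher in gut, and this held under every scaling. Of the 165 tested contigs that averaged 10000 counts or more over the 6 libraries, 112 were called higher in gut and 35 higher in telencephalon (108 and 42 with library size scaling). The group was set by counts of the same libraries, so a contig can enter it through 1 tissue alone. At least 10-fold was fitted for 72 of the 112 and 18 of the 35. The tilt is thus a description, and not separate from the concentration of the gut counts on fewer contigs. From 1000 to 10000 counts the numbers were 1505 and 1436 of 3910, close to even. From 200 to 1000 counts they were 2686 and 3236 of 9151, and from 50 to 200 counts 2064 and 2750 of 9636. The lean toward telencephalon at 50 to 200 counts was present under all 4 scalings (2347 and 2512 with upper quartile scaling). At 200 to 1000 counts upper quartile scaling turned it to 3054 and 2928, and at 1000 to 10000 counts library size scaling gave 1126 and 2014. The share called fell with the level, from 89.1% of the most abundant group to 64.7% at 200 to 1000 counts and 11.6% at 1 to 10 counts, so a contig with few counts that was not called may still differ.

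The contigs at the top of each tissue were picked by their level there, which favors a call in that direction, so their counts are a description beside the 18.9% and 22.6% of all tested contigs. Among the 100 contigs with the highest mean CPM in gut, 89 were higher in gut, 67 of them at least 10-fold, 1 was higher in telencephalon and 10 were not called. Among the 100 highest in telencephalon, 74 were higher there, 44 of them at least 10-fold, 8 were higher in gut and 18 were not called. The very highest ranks differed between the tissues. Of the 10 highest in gut, 8 were higher in gut, whereas of the 10 highest in telencephalon 3 were higher there and 7 were not called. The lists of 100 shared 18 contigs.

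The 2 contigs with the largest fitted fold on each side that met the rule for naming had counts in one tissue only. Their fitted folds depend on the method, and at their lower bounds some contigs counted in both tissues, described below, lie further apart than 3 of these 4. Contig FHM_All_PTA_Assem.19916.C1 had 3750, 4975 and 4174 counts in gut replicates 1, 2 and 3 and 0 in each telencephalon library. It was at least 6383-fold higher in gut, with the limit of 3 counts over the telencephalon group (edgeR's quasi-likelihood test, adjusted p = 6.72e-06). Outside the comparison it had 443, 16 and 73 counts in the liver libraries, so it was not limited to gut.

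The gut libraries held 893, 646 and 715 counts of contig FHM_All_PTA_Assem.7170.C2, and no telencephalon library held any, which puts gut at least 1115-fold above (edgeR, adjusted p = 2.54e-05). This contig had 1 count in all of hypothalamus and 1 in all of liver, and was thus close to absent outside gut among the tissues sequenced. On the other side, the telencephalon libraries held 615, 721 and 429 counts of contig FHM_All_PTA_Assem.18228.C1 and no gut library held any, at least 396-fold higher in telencephalon (edgeR, adjusted p = 3.86e-05). The hypothalamus libraries had 326, 34 and 599 counts of it. Likewise, FHM_All_PTA_Assem.2100.C1 was counted 565, 635 and 498 times in telencephalon and never in gut, at least 381-fold higher (edgeR, adjusted p = 2.67e-05). It was present in hypothalamus too, at 635, 1171 and 484 counts. Neither of the telencephalon contigs was thus particular to that brain region.

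A single contig held a sizable share of the gut counts. Contig FHM_All_PTA_Assem.750.C1 had the highest level in gut among contigs at least 10-fold apart, with 426796, 581986 and 694344 counts in gut replicates 1, 2 and 3. The telencephalon libraries had 787, 386 and 308 counts of it, so the groups lie far apart. Its mean was 34905 ± 8206 CPM in gut and 20.2 ± 9.66 CPM in telencephalon (SD, n = 3 each), a ratio of summed counts of 1707 after scaling (95% exact binomial interval 1622 to 1797, which covers counting error only). The fitted log2 difference was 10.75 (SE 0.54, edgeR adjusted p = 9.43e-06), and the contig took 2.86% of the gut counts on average. With library size scaling the log2 difference was 10.16. In liver it had 11, 43 and 1428 counts, with replicate 3 apart from the others.

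The counterpart in telencephalon was contig FHM_All_PTA_Assem.1951.CB1. It had 151035, 235118 and 216659 counts in telencephalon replicates 1, 2 and 3 and 441, 581 and 260 in the gut libraries. Its level was 8421 ± 2177 CPM in telencephalon and 26.1 ± 9.16 CPM in gut (SD, n = 3 each), a ratio of 317 (95% exact binomial interval 300 to 335) and a log2 difference of -8.33 (SE 0.44, edgeR adjusted p = 1.17e-05). It took 1.03% of the telencephalon counts on average, and the hypothalamus libraries held 271515, 521069 and 266293 counts, so this contig was abundant in both brain regions.

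**Figure D3:**
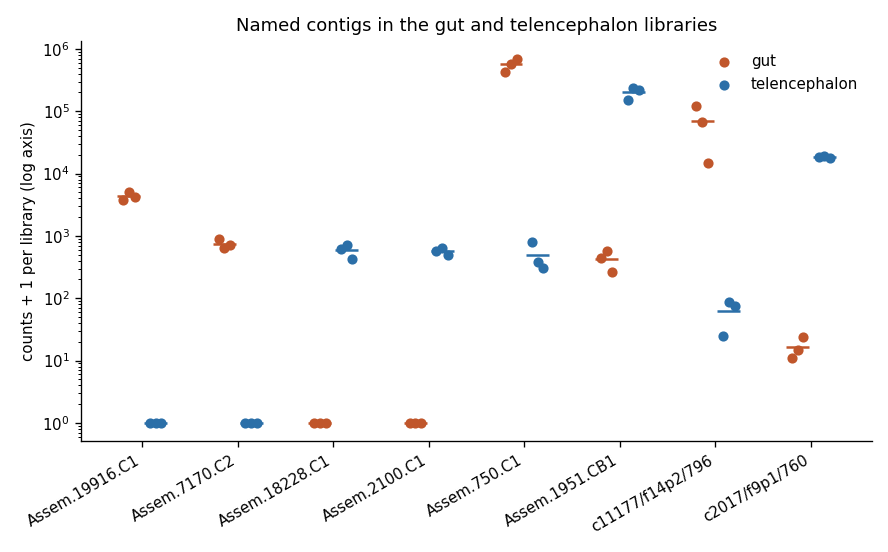
Counts plus 1 of 8 named contigs in each gut and telencephalon library, on a log axis, with points for the replicates 1 to 3 from left to right and lines for the means (Assem. stands for FHM_All_PTA_Assem.). In every contig shown, all libraries of one tissue lie above all libraries of the other.

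Contigs that were well expressed in one tissue and nearly absent from the other were more numerous in telencephalon, by a margin that depended on the limits. There were 962 contigs that averaged 50 counts or more in telencephalon and stayed at 5 or fewer in every gut library, and the reverse for 317. The limits themselves favor a call, and 943 and 302 of these contigs were called, against 41.5% of all tested. With the limits set in CPM, which takes the scaling of the libraries into account, there were 662 and 382. Their own levels were moderate, with a median of 125 counts per library in the telencephalon group and 181 in the gut group, and they held 1.13% ± 0.0587 and 0.736% ± 0.0436 of the counts of their tissue (SD, n = 3). The 2 groups differed in where else they were found. Of the 962 contigs nearly restricted to telencephalon, 810 averaged 50 counts or more in hypothalamus and 18 did so in liver, and 7 had at most 5 counts in every hypothalamus library. Of the 317 nearly restricted to gut, 1 averaged 50 counts or more in hypothalamus and 76 did so in liver. With 0 counts required in the lower tissue, 163 contigs remained for telencephalon and 70 for gut. The gut group held 6 contigs that were not tested because they had counts in a single gut library.

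The other tissues followed the same order as a whole. For the levels in this paragraph, CPM was scaled by TMM over all 12 libraries, and elsewhere over the 6 compared. Across the contigs higher in telencephalon, the median level was 12.7 CPM in telencephalon, 11.4 in hypothalamus, 1.32 in gut and 1.39 in liver. Across those higher in gut, the gut median was 18.3 CPM, followed by liver at 8.25, hypothalamus at 3.56 and telencephalon at 3.05. The liver thus sat near the gut level only in part, and for the contigs at least 10-fold higher in gut its median was 2.5 CPM against 18.9 in gut and 0.369 in telencephalon. These medians describe the lists and were not tested. The contigs higher in gut held 51.8% ± 1.52 (SD, n = 3) of the liver counts and 17.5% ± 1.72 of the hypothalamus counts.

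Isoforms of 2000 bases and over were more often higher in telencephalon than in gut. Some contigs are single isoforms read in full by PacBio sequencing of pooled tissues of 1 male fish, and their names give the length in bases. These isoforms held 5.39 to 5.52% of the counts in the gut libraries and 6.07 to 6.39% in the telencephalon libraries. Lengths of the other contigs were not at hand, so the results on length cover only this small part of the counts. Per the methods, isoform sequences were also clustered and assembled further, and isoforms merged there would not keep such a name. Whether keeping the name depended on length or level was not tested. Of the 4456 isoforms tested, 745 were called higher in gut and 891 higher in telencephalon. Among isoforms under 1000 bases, 180 were higher in gut and 201 higher in telencephalon of 1119 tested, and among those of 1000 to 2000 bases, the largest group, 415 and 437 of 2357. Among those of 2000 to 3000 bases the numbers were 100 and 156 of 652, among those of 3000 to 4000 bases 40 and 67 of 246, and among those of 4000 bases and over 10 and 30 of 82. The part of the called isoforms that was higher in gut was thus 47.2% and 48.7% in the groups below 2000 bases, with no fall between them, and then 39.1%, 37.4% and 25% in the longer groups, against 45.5% over all called contigs. With each library left out in turn, it was 44.8 to 50.1% in the shortest group. In the longest it was 26.3 to 30%, above the 25% with all libraries. The shortest and longest groups were at 29.7% and 16.3% with library size scaling and at 52.4% and 29.7% with upper quartile scaling, so the level moved and the order of these 2 groups did not. The isoforms called higher in telencephalon had a median length of 1402 bases (interquartile range 1019 to 2194), those higher in gut 1320 (1009 to 1761) and those not called 1220.

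A shift toward isoforms of 2000 bases and over in telencephalon also appeared in the counts of each library. Isoforms of 2000 bases and over held 18.8%, 18.7% and 18.9% of the isoform counts in gut replicates 1, 2 and 3 and 29.4%, 28.8% and 27.2% in telencephalon replicates 1, 2 and 3. Weighted by counts, the mean isoform length was 1497 ± 8.03 bases in gut and 1652 ± 30.2 bases in telencephalon (SD, n = 3 each), with no overlap between the libraries. Both measures gave p = 0.1, the smallest that 3 against 3 allows in an exact two-sided permutation test. This test, too, shuffled the libraries without regard to fish. At 2000 to 3000 bases the mean share of the isoform counts was 12.2% in gut and 17.3% in telencephalon. It was 3.98% and 8.16% at 3000 to 4000 bases, but 2.59% and 2.97% at 4000 bases and over. The longest group, with the strongest lean in calls, thus differed little in its share of counts. The share was also taken without the 18 isoforms that were among the 10 highest of either tissue. Without them, the share on isoforms of 2000 bases and over was 21.4 to 22.5% in gut and 31.9 to 32.8% in telencephalon. The liver libraries were at 13.9 to 16.5% and the hypothalamus libraries at 22.2 to 28.8%, with hypothalamus replicate 2 the lowest of that tissue. A longer transcript yields more reads, so these are shares of reads and not of molecules. The methods set a minimum RNA integrity number for sequencing, but the values of the single samples were not at hand, and their part in the shift was not tested.

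**Figure D4:**
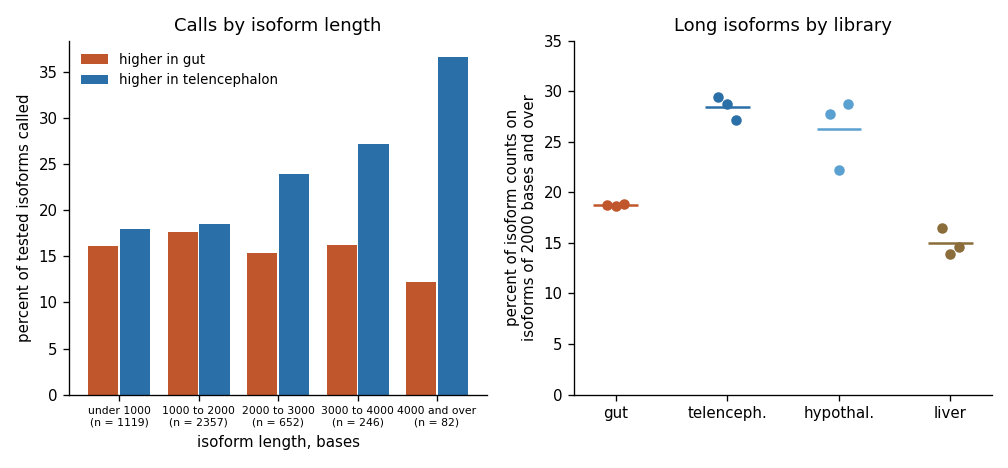
Left, percent of the tested PacBio isoforms called higher in gut or in telencephalon, by length in bases, with the number tested under each pair of bars. Right, percent of the isoform counts of each library on isoforms of 2000 bases and over, with a point per library and a line at the mean, where the gut libraries sit between 18.7% and 18.9% and the telencephalon libraries between 27.2% and 29.4%.

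Per length, the isoform with the highest level on each side was short and had few counts in the other tissue. These isoforms were chosen after their values were seen. Levels per length used the full length in the name. Reads that match several contigs were not counted, so the length open to counting may be shorter. Isoform c11177/f14p2/796, of 796 bases, had the highest mean CPM per kilobase among isoforms called higher in gut, at 9823, 5001 and 1168 in gut replicates 1, 2 and 3 and between 1.20 and 4.35 in telencephalon. It varied widely within gut, with 123693, 67410 and 14885 counts, and still lay far above the 24, 87 and 73 counts of the telencephalon libraries (log2 difference 10.68, SE 1.11, edgeR adjusted p = 0.000248). Without gut replicate 1 its log2 difference was 9.90. The next isoform on the gut side, c14427/f1p0/1528, was longer, at 1528 bases, and was also abundant in telencephalon, with 46043, 30290 and 59456 counts in gut and 15718, 20538 and 18594 in telencephalon (log2 difference 1.88, SE 0.29, edgeR adjusted p = 0.00179). Isoform c2017/f9p1/760, of 760 bases, was the highest of those called higher in telencephalon, at 951, 963 and 1099 CPM per kilobase in telencephalon and 0.832, 1.09 and 1.89 in gut. It had 18126, 19194 and 17617 counts in telencephalon against 10, 14 and 23 in gut (log2 difference -9.62, SE 0.36, edgeR adjusted p = 3.58e-06). In the hypothalamus libraries it had 189, 512 and 458 counts, far fewer than in telencephalon.

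The balance of the calls also differed by where a contig came from. Contigs of the Paracel assembly, which merged the output of several assembly programs, gave 4823 calls higher in gut and 5198 higher in telencephalon of 20719 tested. Contigs named by a sequence identifier gave 1172 and 1919 of 9806. Contigs named as singlets, called single sequences here, gave 1309 and 1653 of 7563. Those named by an identifier were taken to be expressed sequence tags, single cDNA reads from earlier collections. Single sequences were taken to be sequences that the Paracel assembly did not merge, which may themselves be contigs of another assembly program. The sources used here state neither. Expressed sequence tags held 5.52% ± 0.0270 of the gut counts and 8.64% ± 0.141 of the telencephalon counts (SD, n = 3). Their tilt was present at a like level of expression. Among contigs with a mean of 200 to 1000 counts, 365 tags were higher in gut and 696 in telencephalon, while the Paracel contigs gave 1854 and 2087 and the single sequences 222 and 180 (172 and 253 with library size scaling). Which tissues the tag collections were made from is not given in the sources used here, and its part in this tilt was not tested.

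Where at least 2 contigs of a cluster were called, they mostly shared a direction, and a small set was split. The Paracel assembly groups similar sequences into clusters, whose contigs can be isoforms, alleles or copies of a gene family. At least 2 contigs were tested in 3676 clusters. No contig was called in 1427 of them, so these do not show whether related contigs moved together. At least 2 contigs were called in 1025 clusters. All called contigs were higher in gut in 454 of these, all were higher in telencephalon in 442, and 129 clusters (12.6%) held calls in both directions. In 43 clusters the contigs were called at least 4-fold in both directions. The 129 clusters held 513 tested contigs, 164 called higher in gut and 164 higher in telencephalon. Summed over all tested contigs of a cluster, called or not, 85 of the 129 had gut and telencephalon levels within 2-fold of each other. A contig that was not called can hold most of such a sum, and whether opposite changes offset each other was not tested. By size, 47 of 2570 clusters of 2 contigs were split, 62 of 1035 with 3 to 5, 13 of 59 with 6 to 10 and 7 of 12 with more, and a cluster with more contigs has more ways to hold calls in both directions. Reads that match several related contigs were not counted by the authors, so a contig's count covers only the part of its sequence that is unlike the others. The number of split clusters fell to 74 without telencephalon replicate 2 and likewise without telencephalon replicate 3, and to 43 when a difference of more than 2-fold was required.

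The clusters with the widest split among well counted contigs were cluster 430 and cluster 3258. In cluster 430, contig FHM_All_PTA_Assem.430.C3 had 6, 6 and 3 counts in gut and 2109, 2690 and 1769 in telencephalon (log2 difference -8.17, SE 0.28, edgeR adjusted p = 3.14e-06). Its relative FHM_All_PTA_Assem.430.C4 had 171, 212 and 124 counts in gut and 16, 25 and 14 in telencephalon (log2 difference 3.77, SE 0.34, edgeR adjusted p = 0.000117). The groups of libraries lay apart for both contigs, in opposite directions. A further contig of this cluster, C1, was also higher in gut at 14, 7 and 2 counts against 0, 0 and 1, while C2 was not called (37, 48 and 21 counts in gut, 38, 38 and 21 in telencephalon). In the other brain region, C3 had 1922, 807 and 2446 counts.

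Cluster 3258 was dominated by gut contigs. Its contig FHM_All_PTA_Assem.3258.C1 had 44048, 58782 and 57924 counts in gut and 6376, 5693 and 4485 in telencephalon (log2 difference 3.85, SE 0.19, edgeR adjusted p = 8.78e-06). FHM_All_PTA_Assem.3258.C7 had 8473, 12038 and 15134 counts in gut and 53, 13 and 16 in telencephalon (log2 difference 9.33, SE 0.66, edgeR adjusted p = 3.92e-05). Its log2 difference was 10.22 without telencephalon replicate 1, the highest of that tissue, and 8.74 with library size scaling. It was also found in liver at 4726, 4646 and 4684 counts, where C1 had 738, 730 and 998. The order of the counts of C1 and C7 was thus reversed between gut and liver. Counts of different contigs also depend on the length counted, which was not at hand, so this is no order of molecules. Against both, FHM_All_PTA_Assem.3258.C6 was higher in telencephalon, at 2069, 2429 and 1845 counts against 488, 434 and 469 in gut (log2 difference -1.61, SE 0.14, edgeR adjusted p = 0.000106). The contigs C3 and C4 of this cluster were not called, with fitted log2 differences of -0.49 and -0.51.

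**Figure D5:**
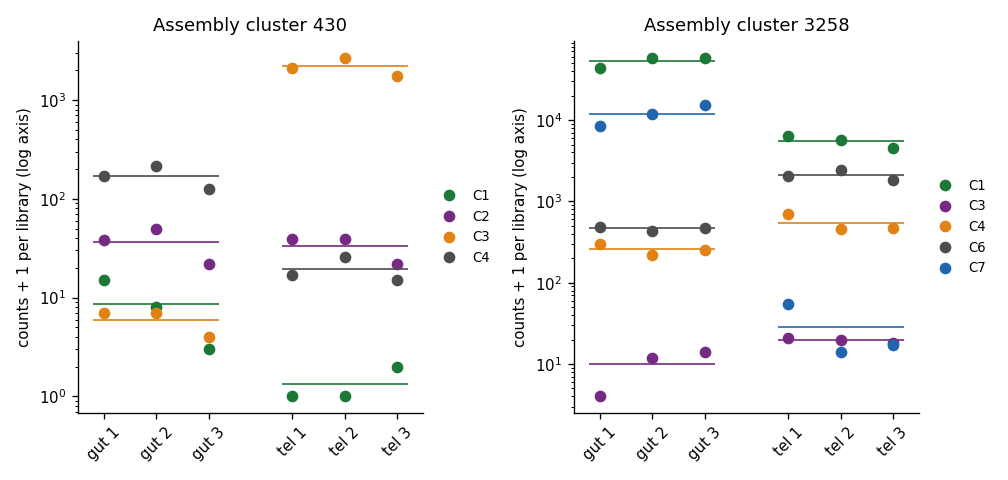
Counts plus 1 of each tested contig of assembly clusters 430 (4 contigs) and 3258 (5 contigs) in the gut and telencephalon (tel) libraries, on log axes, with lines at the tissue means. In cluster 430 contig C3 has the lowest mean count of its cluster in gut and by far the highest in telencephalon, without correction for length. In cluster 3258 contig C7 falls from 8473 to 15134 counts in gut to 13 to 53 in telencephalon, while C6 is higher in telencephalon.

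Contigs with similar levels in the tissues were also numerous. Of the tested contigs, 16134 averaged 50 counts or more in both tissues, of which 4708 were called higher in gut, 3672 higher in telencephalon and 7754 were not called. Of the contigs not called, 7147 had a fitted difference within 2-fold, which does not show that their levels are equal. This level was reached in telencephalon only by 6568 contigs and in gut only by 2611. Among contigs present in both tissues at this level, more were thus higher in gut with TMM, but with library size scaling 2772 were higher in gut and 6310 in telencephalon.

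The fish differed from each other less than the tissues did, and the spread measured over 3 fish was somewhat larger in gut than in telencephalon. Over the 42878 tested contigs, the Pearson r of log2(CPM + 1) was 0.956 on average within gut (0.949 to 0.967 over 3 pairs of libraries), 0.967 within telencephalon (0.960 to 0.979) and 0.674 between the tissues (0.654 to 0.707 over 9 pairs). These correlations are across contigs, which are not independent, and include contigs that are low in all libraries. The 23223 contigs that reached 50 counts in 3 or more of the 6 libraries gave 0.951 within gut, 0.954 within telencephalon and 0.358 between the tissues. That limit admits contigs high in 1 tissue only, which lowers the r between the tissues. Over the same 23223 contigs, the median SD of log2(CPM + 1) among the 3 fish was 0.257 in gut and 0.190 in telencephalon. The SD was over 1 for 3.77% of contigs in gut and 2.93% in telencephalon. The biological coefficient of variation that edgeR estimated with each tissue alone was 0.490 in gut and 0.425 in telencephalon. Whether this spread differs between the tissues was not tested.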

How the data were processed

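RNA of gut and telencephalon (3 libraries each) was sequenced, with hypothalamus and liver as further tissues of the series. The deposited files hold whole-number counts per contig, which were not normalized by the authors. Per the methods, the authors trimmed reads with Cutadapt, mapped them with bowtie 2, dropped potential PCR duplicates, kept reads that mapped uniquely and counted them with in-house scripts; their versions were not given in the sources used here. As the target of mapping, the methods name the consensus transcriptome and also zebrafish sequences, while the contigs bear names of fathead minnow collections.

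Contigs absent from a list were set to 0. Names of 11230 contigs hold a sequence identifier, and 0 names matched the 64593 genes of the supplied table (assembly fPimPro1.hap1.1), so the lists of cell type markers that had been drawn up could not be looked up. In R 4.3.3, the 6 libraries were fitted with edgeR 4.0.16 (TMM scaling, quasi-likelihood test, Benjamini-Hochberg threshold 0.05) over contigs counted in 2 or more replicates of any of the 4 tissues. Standard errors were taken from the size of the log2 difference and its F statistic. Contigs named by rule were the 2 with the largest fold on each side (adjusted p under 0.05, 50 counts or more in each library of the tissue where it was higher, same direction in all 3 fish), the one of highest level at least 10-fold apart on each side, and the 2 clusters with the widest split. Tags whose name is an accession were passed over. The comparison, lists and rules were chosen with earlier results of these data known. Library-level measures were compared with exact permutation tests. Neither these tests nor the main edgeR fit paired the libraries by fish.

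Alternatives were edgeR's exact test, DESeq2 1.42.0, a fit of all 4 tissues, other scalings, filters and prior counts, a 2-fold threshold, the replicate number as a block, and leaving out each library. Totals of 17729942 to 21463583 counts per library set the precision, and intervals and limits of 0 counts cover counting error only, since reads were not marked by molecule of origin and so are not independent. The test was checked on simulated data in which few contigs were changed, equally in both directions. Such data do not bear on the choice of scaling when many contigs differ.

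To see whether the replicate numbers pair the samples, deviations of libraries from the mean of their tissue were correlated between gut and telencephalon over 23223 contigs. The pairs with the same number gave 0.450, 0.405 and 0.401 and the pairs with different numbers -0.315 to -0.014, so the numbers were taken to stand for the 3 males of the methods. Replicates of one tissue differed by a chi-square of 14.7 to 79.8 per degree of freedom, so all were counted as separate samples.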

Additional observations from a re-analysis of the deposited data

How the results depend on the processing

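None of the 17803 contigs called as reported turned to a call in the opposite direction in any of 18 alternative fits, but calls were lost: 14107 kept their call without telencephalon replicate 2, 14275 without telencephalon replicate 3, 15046 with library size scaling, 15476 in the fit of all 4 tissues and 11366 at the 2-fold threshold. The replicate block, with the number as the fish, called 19421 contigs, 17211 of them among those reported, and neither changed the call of a named contig nor moved a count by over 1.5 times. DESeq2 called 19284 contigs and edgeR's exact test 18287. Counts moved by over 1.5 times without telencephalon replicate 2 or 3 (74 split clusters each, against 129), at the 2-fold threshold (11366 contigs, 4857 higher in gut, 43 split clusters), with library size scaling (5345 higher in gut, median log2 difference -0.70) and with stricter limits for near restriction (579 telencephalon contigs averaging 100 counts or more, 163 telencephalon and 70 gut contigs with 0 in the other tissue). Upper quartile scaling moved the median log2 difference to 0.0622. With one library left out, 14248 to 16962 contigs differed, 6490 to 7638 higher in gut and 7758 to 9367 higher in telencephalon, 5844 to 6527 were at least 10-fold apart, 74 to 108 clusters were split, the median log2 difference was -0.14 to -0.07, and 312 to 465 contigs were nearly restricted to gut and 911 to 1244 to telencephalon. The 12 named contigs that were refitted passed in every one of these fits, with adjusted p of at most 0.00381.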

Other observations

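Some contigs were present in gut and telencephalon of 1 fish and nearly absent from the others. At least 50 counts in gut and in telencephalon of the same replicate number, with at most 2 counts in each of the other 4 libraries, were found for 28 contigs in replicate 1, 11 in replicate 2 and 13 in replicate 3. No contig met these limits for any of the 6 combinations of a gut library with a telencephalon library of another number. All 52 contigs were also highest in the hypothalamus and in the liver library of their own number, with no minimum count set there. Isoform c3634/f1p0/1795 had 3182 counts in gut replicate 2 and 1013 in telencephalon replicate 2, against 0 or 1 in the other gut and telencephalon libraries, and it had 1211 and 2679 counts in the hypothalamus and liver of replicate 2. In replicate 3, FHM_All_PTA_Assem.7225.C2 was counted 1978 times in gut and 990 times in telencephalon, and it was at 0 in the other numbers of these tissues. In replicate 1, FHM_All_PTA_Assem.4032.C3 was counted 76 times in gut and 1039 times in telencephalon, and it was at 0 in the other numbers of these tissues. The hypothalamus of replicate 1 had 793 counts of it, but the liver libraries had only 2, 0 and 0. None of these 3 contigs was called between the tissues (edgeR, adjusted p = 0.385, 0.56 and 0.726 for 4032.C3, c3634 and 7225.C2). They were chosen after their values were seen, and what sets the fish apart was not tested.

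At least 150 counts in a single one of the 6 libraries and 0 in the other 5 were found for 7 contigs, of which 6 were in gut replicate 1 and 1 in telencephalon replicate 1.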
